A study of Mus musculus with 2 samples.

Results

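Cytosolic ribosomal protein genes encode the proteins of the ribosome that works outside mitochondria. The set described here is every gene row whose name is Rpl or Rps followed by a digit, together with Rplp0, Rplp1, Rplp2 and Rpsa, which gave 86 of the 32285 gene rows. Names with -ps, of which there were 5, and 10 Rps6k names, which belong to kinases that phosphorylate the ribosome, were left out. By their names, 31 members encode proteins of the small subunit, 43 of the large subunit and 3 of the stalk that recruits elongation factors. Another 8 are paralogs of a core protein (Rpl22l1, Rps27l, Rps27rt, Rpl39l, Rpl3l, Rpl10l, Rpl36al and Rpl7l1). The remaining member, Rps19bp1, encodes a binding partner of Rps19 and not a ribosomal protein.

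The nuclei came from effector T cells sorted out of the gut, colon together with small intestine. The mice were 26 to 33 weeks of age. The sort kept CD4+CD44+CD62L- cells and removed those with CD8a, CD11c, CD45R or F4/80. RNA and open chromatin were read from the same nuclei in droplets. Control animals had the genotype Zfp362flox/flox. Those of the knockout library were CD4creZfp362flox/flox, so both groups carry the floxed Zfp362 alleles and differ by the Cre transgene. Cd4 regulatory sequence drives this Cre, which acts in the T lineage from a stage in the thymus onward and also in cells that later become CD8 T cells. The series' design text names 7 mice without saying whether that number is per genotype, and the animals in a library cannot be told apart. With 1 library per genotype there is no test across mice. Every interval below is an exact 95% interval that covers counting error only. It is Poisson for levels and for shares of UMIs, and conditional binomial for log2 ratios. For shares of a paralog pair and shares of nuclei it is Clopper-Pearson. Genotype cannot be told apart from library.

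The deposited barcodes held 10803590 gene UMIs (unique molecular identifiers, 1 per captured RNA molecule) in control and 9348999 in knockout nuclei. After filters, 4176 of 4223 control nuclei and 2346 of 2391 knockout nuclei were kept, with medians of 2007 and 2301.5 gene UMIs. No doublet caller was run, and 11 barcodes occurred in both libraries. Zfp362, the targeted gene, had 72 UMIs (9.85 CPM, UMIs scaled to a total of 1000000) in control and 52 (7.34 CPM) in knockout Cd3-positive nuclei. No source used here names the deleted exons, so this RNA does not check the labels.

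Nuclei were called Cd3-positive when they had at least 1 UMI of Cd3d, Cd3e or Cd3g, and each class was divided at 4000 gene UMIs. T cell markers took 0.693% of UMIs in control Cd3-positive nuclei up to 4000 UMIs and 0.221% in the Cd3-negative ones. These 15 markers include Cd3d, Cd3e and Cd3g, which the split sets to 0 in Cd3-negative nuclei. Part of this gap was therefore fixed in advance, and it does not check the classes. A Cd3-negative nucleus may still be a T cell whose Cd3 RNA was not sampled. The median depths were 1833 and 1981.5 UMIs in the Cd3-negative and Cd3-positive nuclei of that library. Epithelial markers stood apart in the Cd3-negative nuclei above 4000 UMIs, with 3.04% of UMIs in control and 5.02% in knockout nuclei. In the other classes of both libraries epithelial markers took at most 0.0131%. In the Cd3-negative nuclei above 4000 UMIs, B and plasma cell markers took 1.36% and 0.298%. That class held 62 control and 70 knockout nuclei.

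Ribosomal proteins are made in the cytoplasm, carried to the nucleolus, and assembled there with ribosomal RNA into the small and large subunits. Their messages begin with a C followed by a run of pyrimidines, the terminal oligopyrimidine (TOP) tract, through which the kinase complex mTORC1 and the RNA-binding protein Larp1 set how strongly they are translated. Activated T cells raise ribosome production before they divide. Mature ribosomal protein messages lie mostly in the cytoplasm, so a preparation of nuclei holds newly made RNA together with cytoplasmic RNA that stayed with the nuclei or was free in the droplets. These sources were not separated in the files.

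The start sites of 6 members that the results turn on are shown first, because the TOP tract sits at the first transcribed base. Each line gives 40 bases before and 20 bases from the annotated first base on, on the gene's own strand, 5′ to 3′, from RefSeq's GRCm38.p6 annotation. Capitals mark the longest run of C and T that contains or touches the first transcribed base. Rpl35 and Rps27 were among the members that differed least between the libraries, Rps3 and Rpl23 were the furthest lower in Cd3-positive nuclei, Rpl10 was higher in Cd3-negative nuclei, and Rpl39l is the paralog with the widest gap between the Cd3 classes.
Rpl35 (chr2:39005112-39005171, minus strand): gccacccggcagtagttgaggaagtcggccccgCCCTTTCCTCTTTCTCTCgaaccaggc
Rps27 (chr3:90213629-90213688, minus strand): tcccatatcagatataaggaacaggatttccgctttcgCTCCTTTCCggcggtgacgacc
Rps3 (chr7:99483690-99483749, minus strand): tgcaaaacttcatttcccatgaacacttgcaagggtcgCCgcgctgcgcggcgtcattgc
Rpl23 (chr11:97782420-97782479, minus strand): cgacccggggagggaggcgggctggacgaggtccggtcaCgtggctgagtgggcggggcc
Rpl10 (chrX:74270776-74270835, plus strand): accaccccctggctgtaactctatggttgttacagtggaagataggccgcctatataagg
Rpl39l (chr16:10170188-10170247, plus strand): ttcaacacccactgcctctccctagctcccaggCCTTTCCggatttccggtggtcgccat
The run is 18 bases long in Rpl35 and 9 in Rps27, but 2 in Rps3 and 1 in Rpl23. In Rpl10 no C or T touches the annotated first base. An annotated first base can lie some bases away from the one used in these cells.

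RefSeq held a promoter for 66 of the 86 members. Among them a C/T run of at least 5 bases at the start was present in 39.4%, against 18.8% of 27025 promoters of all genes, and a run of at least 8 bases in 25.8% against 5.94%. The first base was C in 33.3% of members and 16.2% of all promoters. In the window of 300 bases (250 before to 50 from the first base on, both strands), CCGGAAG, the core bound by ETS factors such as GABP, was found in 37.9% of members and 9.12% of all promoters. GGGCGG, the core bound by SP1, was found in 60.6% and 35.9%. AAGATGGC, the core of YY1 sites, was found in 7.58% and 2.88%, TATAAA in 9.09% and 14.2%, and the E-box CACGTG in 7.58% and 7.24%. CCGGAAG ends with the letters AAG that open AAGATGGC, so these 2 can share bases. A match describes letters and not binding.

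In control Cd3-positive nuclei up to 4000 UMIs, the 86 genes together took 9.50% (9.48 to 9.53) of all gene UMIs, from 2030 nuclei. The same class of the knockout library had 7.37% (7.34 to 7.41), from 882 nuclei. Cd3-positive nuclei above 4000 UMIs had 7.89% in control (439 nuclei) and 6.05% in knockout mice (502 nuclei). The Cd3-negative classes had 7.80% and 6.10% up to 4000 UMIs, from 1645 and 892 nuclei, and 6.40% and 5.72% above it. Within each library the Cd3-positive nuclei up to 4000 UMIs were the highest class, and within each class the knockout library was lower.

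**Figure D1:**
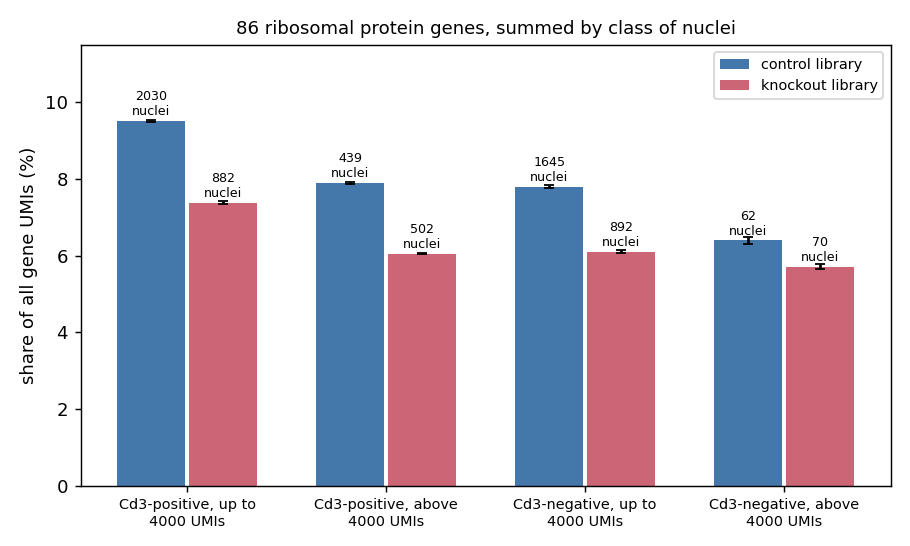
Share of all gene UMIs (%, vertical axis) taken by the 86 ribosomal protein genes in each class of nuclei, control library in blue and knockout library in red; whiskers are exact 95% counting intervals and the numbers above the bars count nuclei. The knockout bar is below the control bar in all 4 classes, from 7.37% against 9.50% on the left to 5.72% against 6.40% on the right.

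The make-up of this share was similar in both libraries. Proteins of the large subunit took 48.9% of the members' UMIs in control and 48.8% in knockout Cd3-positive nuclei up to 4000 UMIs, the small subunit 44.4% and 44.4%, and the stalk 5.77% and 5.81%. The 8 paralogs took 0.916% and 0.993%. Rplp1, a stalk protein, had the most UMIs, with 3.21% of the members' total in each library (3053 CPM in control, 2364 in knockout). Per kilobase of annotated exons, the highest levels among the 77 core genes in control Cd3-positive nuclei were those of Rplp1 (6118 CPM per kilobase), Rps29 (2930) and Rpl38 (2690), and the lowest were those of Rpl3 (165) and Rpl35 (181). Many members have processed pseudogenes with near-identical sequence, so levels between members are uncertain. The Spearman correlation of the members' levels between the libraries was 0.99 over 86 genes in this class, as a description of 2 libraries.

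Summed over members, the log2 ratio of knockout over control was -0.37 (-0.37 to -0.36) in Cd3-positive nuclei up to 4000 UMIs, a share 22.4% lower. It was -0.38 (-0.39 to -0.37) in Cd3-positive nuclei above 4000 UMIs and -0.35 (-0.36 to -0.34) in Cd3-negative nuclei up to 4000 UMIs. Among the few Cd3-negative nuclei above 4000 UMIs it was -0.16 (-0.19 to -0.14), and this value moved to -0.25 with the limit at 3000 UMIs and to -0.04 with it at 6000. The gap was therefore also present in nuclei with no Cd3 UMI. Small and large subunit genes had the same summed ratio in Cd3-positive nuclei up to 4000 UMIs, -0.37 each, and the stalk genes -0.36. The paralogs together had -0.25 (-0.34 to -0.16).

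The lower level was spread over nearly all members. Of the 82 members with at least 100 UMIs in Cd3-positive nuclei up to 4000 UMIs, 80 had a ratio below 0, with a median of -0.39, while the median over all 6590 genes tested was 0.00. In Cd3-positive nuclei above 4000 UMIs all 82 were below 0, with a median of -0.42 against -0.02 over all genes. In Cd3-negative nuclei up to 4000 UMIs 82 of 83 were below 0, with a median of -0.37 against -0.01. In the Cd3-negative nuclei above 4000 UMIs 68 of 79 were below 0, with a median of -0.16 against 0.05.

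A log2 ratio of -0.5 or below was reached by 2, 7, 0 and 2 members in these classes, in the same order, where 3.43%, 5.04%, 4.07% and 5.98% of all genes tested reached it. No member reached 0.5 in any class, where 3.49%, 3.26%, 2.83% and 9.8% of all genes did. At a limit of -0.25, chosen after the values were seen, the counts were 71, 73, 72 and 27 members, against 17.4%, 20.6%, 19.3% and 18.1% of all genes. The members' difference was thus moderate in size and shared, with few members far from their median. The members' ratios in the Cd3-positive and Cd3-negative classes up to 4000 UMIs had a Spearman correlation of 0.59 over 82 genes, from different nuclei of the same libraries.

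**Figure D2:**
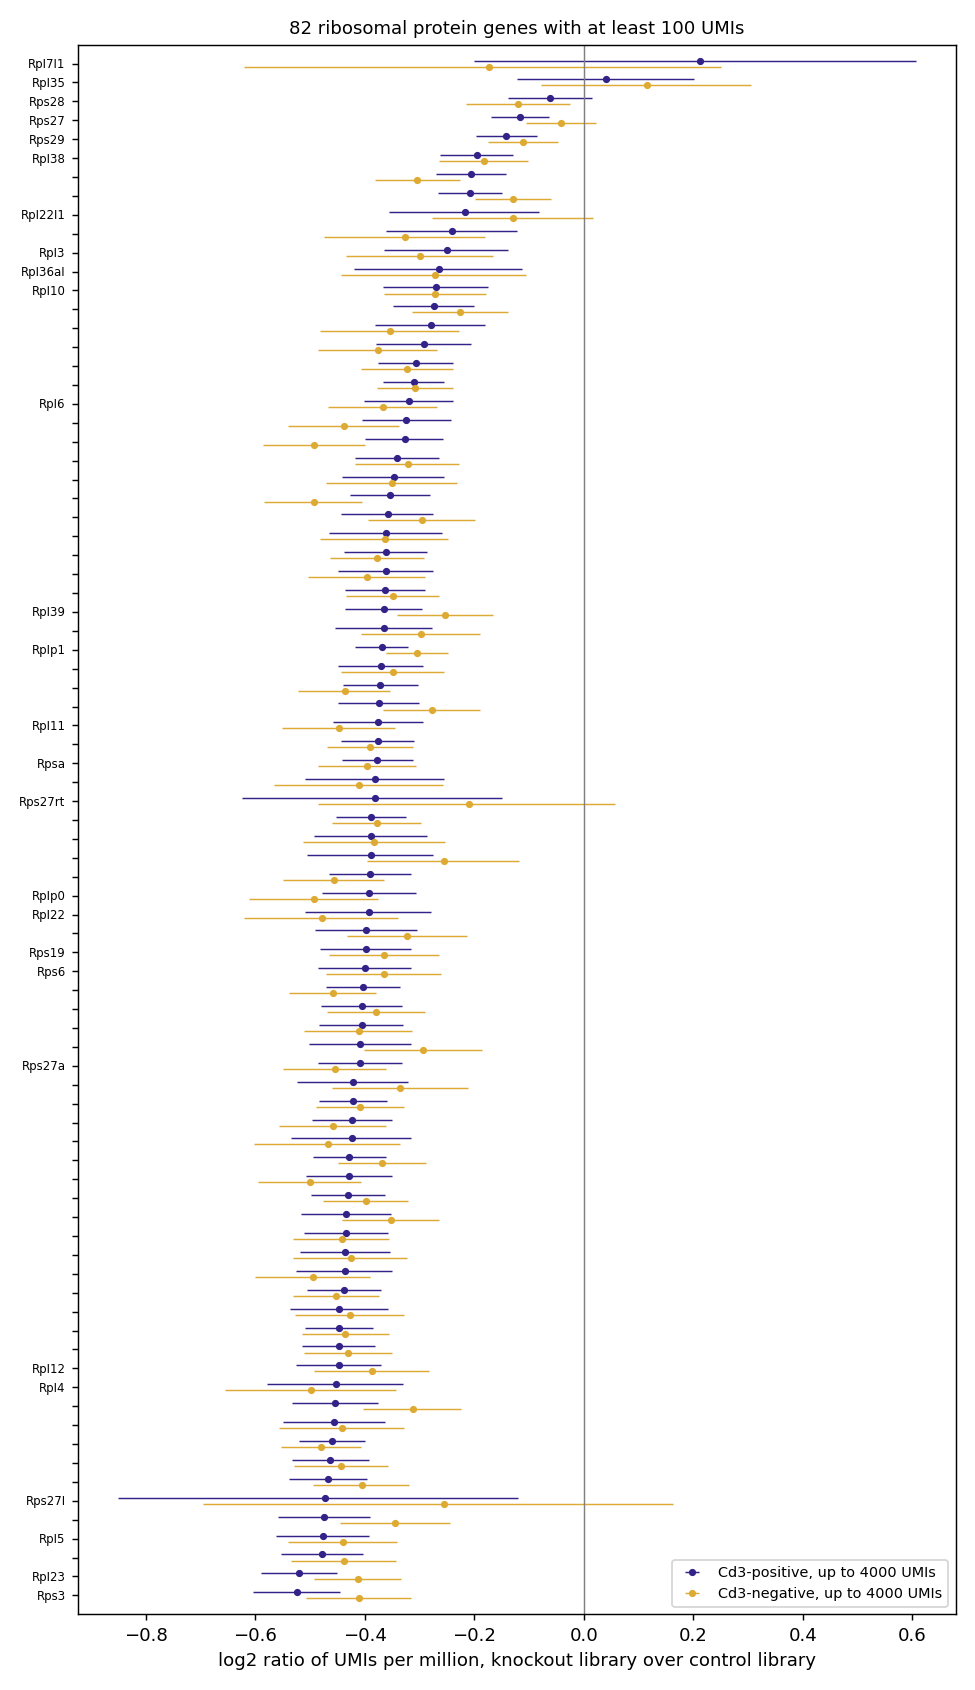
Log2 ratio of CPM, knockout library over control library (horizontal axis), for each of the 82 ribosomal protein genes with at least 100 UMIs in Cd3-positive nuclei up to 4000 UMIs; genes described in the text are named, points are the 2 Cd3 classes and lines exact 95% counting intervals. Most genes lie between -0.5 and -0.2 in both classes, and in Cd3-positive nuclei Rps3 (-0.52) is at the bottom and Rpl7l1 (0.21), Rpl35 (0.04) and Rps28 (-0.06) are at the top.

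Rps3, a small subunit protein at the messenger entry channel that also acts in DNA repair, was the furthest lower in Cd3-positive nuclei up to 4000 UMIs. It had 1225 CPM (1192 to 1258) in control and 851 (811 to 893) in knockout nuclei, and 952 and 716 in the Cd3-negative nuclei. Its log2 ratio was -0.52 (-0.60 to -0.45) in Cd3-positive and -0.41 (-0.51 to -0.31) in Cd3-negative nuclei. Rpl23, a large subunit protein that can bind Mdm2, had 1609 and 1122 CPM in control and knockout Cd3-positive nuclei and 1359 and 1020 in Cd3-negative ones. In both classes the knockout interval lay wholly below the control interval for these 2 genes.

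Rpl5 and Rpl11, which together with ribosomal RNA hold back Mdm2 and so tie ribosome assembly to p53, were both lower in the knockout library. Rpl5 had 1025 CPM in control and 736 in knockout Cd3-positive nuclei, with a log2 ratio of -0.48 (-0.56 to -0.39). Rpl11 had 1060 and 817, with a ratio of -0.38 (-0.46 to -0.29). Rps19, whose loss in people causes Diamond-Blackfan anaemia, had 1047 and 794, with a ratio of -0.40 (-0.48 to -0.32). Rps6, the protein phosphorylated downstream of mTORC1, had 1005 and 762, with the same ratio of -0.40. Rpl22, needed for the development of alpha-beta T cells, had 544 and 414, with a ratio of -0.39 (-0.51 to -0.28). Rpl5 lay somewhat below the members' median of -0.39 and the other 4 close to it.

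A few members were nearly level between the libraries. Rpl35, a large subunit protein near the exit of the peptide tunnel, had 225 CPM (211 to 239) in control and 231 (211 to 253) in knockout Cd3-positive nuclei, and 191 and 207 in Cd3-negative ones. Its ratios of 0.04 (-0.12 to 0.20) and 0.12 (-0.08 to 0.31) had intervals that include 0. Rps28 had 1022 and 980 CPM in Cd3-positive nuclei, a ratio of -0.06 (-0.14 to 0.02). Rps27, a zinc finger protein of the small subunit, had 2205 and 2034, a ratio of -0.12 (-0.17 to -0.06), and Rps29, another small zinc-binding protein, had 2031 and 1841, a ratio of -0.14 (-0.20 to -0.09). Rpl35, Rps27, Rps28 and Rps29 were also among the 5 highest members in Cd3-positive nuclei above 4000 UMIs and in Cd3-negative nuclei up to 4000 UMIs.

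Rps27, Rps28 and Rps29 have short transcripts. The length limits used here were set after their ratios were seen, so the gaps in medians are descriptions. The 7 tested members with a principal transcript of at most 400 bases had a median ratio of -0.19 in Cd3-positive nuclei up to 4000 UMIs, against -0.39 for the other 75. With the limit at 600 bases the medians were -0.35 (23 members) and -0.40 (59 members), so the gap rests on the shortest transcripts. At 400 bases the medians were -0.16 and -0.43 above 4000 UMIs, and -0.13 and -0.38 (7 and 76 members) in Cd3-negative nuclei up to 4000 UMIs. The Spearman correlation of ratio and transcript length over members was -0.32 (82 genes), -0.38 (82 genes) and -0.37 (83 genes) in these classes, within the same 2 libraries. In Cd3-negative nuclei above 4000 UMIs the correlation was -0.11 (79 genes). At 400 bases the medians there were 0.06 (6 members) and -0.19 (73 members). Rpl35, at 946 bases, does not belong to the short members. By exon bases, which count all annotated transcripts of a gene, the members were almost level in Cd3-positive nuclei up to 4000 UMIs, with medians of -0.38 up to 1000 bases (12 members), -0.37 from 1000 to 2000 (34), -0.39 from 2000 to 4000 (30) and -0.41 from 4000 to 8000 (6). Genes outside the set had medians of -0.07 (184 genes), -0.12 (551), -0.03 (1606) and 0.01 (2602) in the same bins. The part of transcript length in the members' ratios was not tested.

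Genes of related function were lower to different degrees in Cd3-positive nuclei up to 4000 UMIs. Other messages with a TOP tract together had a log2 ratio of -0.31 (-0.33 to -0.29). At or below -0.25, the limit chosen after the values were seen, were 13 of 21 tested, against 17.4% of all genes. The lowest of the 21 was Vim, an intermediate filament gene, with 255 and 152 CPM. Tpt1 had 2815 and 2026 and Eef1a1, an elongation factor, 2258 and 1811. Fau, whose product is a ribosomal protein fused to a ubiquitin-like protein, had 2186 and 1711. Nuclear-encoded subunits of the respiratory chain had -0.19 (-0.22 to -0.17), and mitochondrial ribosomal proteins -0.17 (-0.23 to -0.11). Translation initiation factors had -0.06 (-0.10 to -0.03), ribosome biogenesis factors -0.04 (-0.09 to 0.01) and regulators of mTORC1 and TOP messages 0.00 (-0.05 to 0.06). Host transcripts of small nucleolar RNAs had 0.11 (0.04 to 0.17). In this class the RNA of genes that build or regulate ribosomes was thus nearly level, while the RNA of the ribosomal protein genes was lower.

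Transcripts of the mitochondrial genome moved with the members, and further. They took 0.386% of UMIs in control and 0.216% in knockout Cd3-positive nuclei up to 4000 UMIs, a log2 ratio of -0.84 (-0.88 to -0.79). The ratio was -1.03 above 4000 UMIs and -0.86 in Cd3-negative nuclei up to 4000 UMIs. Malat1, a long transcript kept in the nucleus, was higher in the knockout library, with 29971 and 32456 CPM and a ratio of 0.11 (0.10 to 0.13). Depth differed too, since 17.8% of control and 36.3% of knockout Cd3-positive nuclei had more than 4000 UMIs. The part of cytoplasmic RNA carry-over in the ribosomal protein ratios was not tested.

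The share taken by ribosomal protein genes was lower in deeper nuclei. From up to 4000 to above 4000 UMIs, the log2 ratio of the sum was -0.27 (-0.28 to -0.26) in control and -0.28 (-0.29 to -0.28) in knockout Cd3-positive nuclei. In control nuclei the ratio was -0.37 for Rpsa and -0.05 (-0.14 to 0.02) for Rpl10. In Cd3-negative nuclei the summed ratio was -0.29 (-0.31 to -0.27) in control and -0.09 (-0.12 to -0.07) in knockout nuclei, in the class where epithelial markers stood apart. The median over all genes tested was -0.01 and -0.02 in Cd3-positive nuclei, and -0.23 and -0.20 in Cd3-negative ones, where the knockout members thus lay above it.

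In most bins of matched depth the knockout library was lower. Cd3-positive nuclei with 2000 to 3000 UMIs had 9.78% (9.73 to 9.82) in control and 7.64% (7.58 to 7.70) in knockout nuclei, from 698 and 337 nuclei. With 6000 to 10000 UMIs they had 7.67% and 6.59%, from 122 and 167 nuclei. Over 8 bins in each Cd3 class, the knockout library was lower in 15 of 16, and in 13 the intervals were apart. The exception was Cd3-negative nuclei with 6000 to 10000 UMIs, with 5.24% in 8 control and 5.25% in 17 knockout nuclei. In Cd3-positive nuclei with 500 to 1000 UMIs the shares were 12.4% and 12.1%, from 52 and 28 nuclei, with overlapping intervals. They also overlapped in Cd3-negative nuclei with at least 10000 UMIs, at 6.08% (5.92 to 6.25) in 4 control and 5.86% (5.74 to 5.98) in 8 knockout nuclei.

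**Figure D3:**
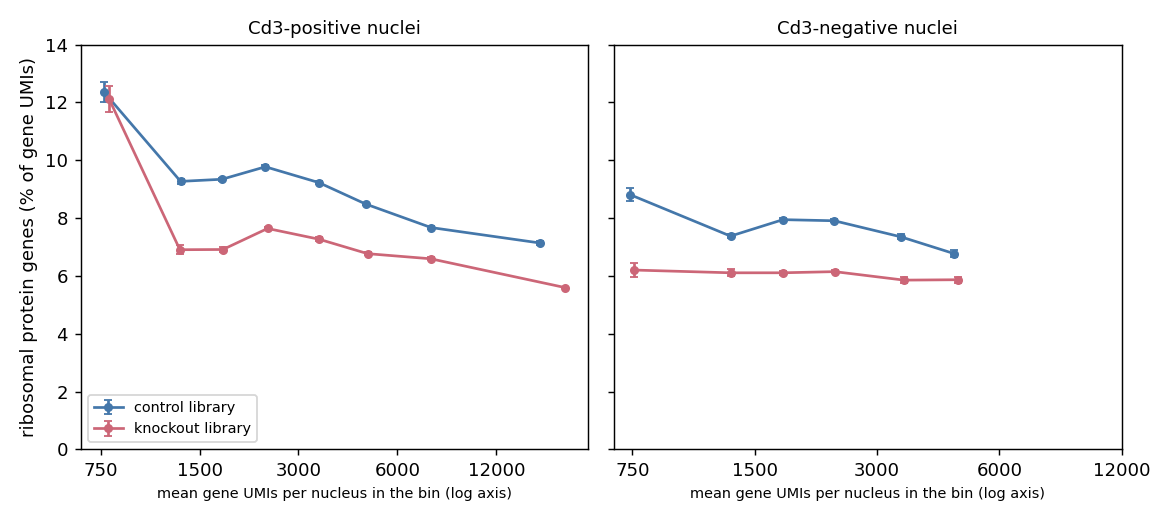
Share of gene UMIs (%, vertical axis) from ribosomal protein genes by depth bin, placed at the bin's mean UMIs per nucleus (log axis), for Cd3-positive (left) and Cd3-negative nuclei (right); whiskers are exact 95% counting intervals and bins with fewer than 20 nuclei are not drawn. The knockout line runs below the control line in all bins drawn from 1000 UMIs on, for example at 7.64% against 9.78% in Cd3-positive nuclei with 2000 to 3000 UMIs.

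Single nuclei varied more widely than the libraries. In control Cd3-positive nuclei up to 4000 UMIs the ribosomal protein share had a median of 9.11%, with the middle 90% of nuclei between 4.53% and 16.2%. In knockout nuclei of that class the median was 6.94%, with 2.69% to 13.6%. The distributions overlapped over most of their width. With every nucleus thinned to 1000 UMIs, the SD among nuclei was 3.64 percentage points in control and 3.13 in knockout nuclei, where sampling alone gives 0.926 and 0.821. A median nucleus of the class had 183 member UMIs from 67 of the 86 genes in control and 148 from 62 in knockout nuclei.

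Within nuclei the members moved together. Across control Cd3-positive nuclei up to 4000 UMIs, the shares of small and large subunit genes had a Spearman correlation of 0.89 (2030 nuclei of 1 library, which share depth and ambient RNA). In the other 7 classes and libraries it was between 0.89 and 0.93. The members' share had a correlation of 0.75 with the other TOP messages, 0.42 with the nuclear-encoded respiratory chain, 0.15 with the mitochondrial genome and -0.39 with Malat1 in the same control nuclei. Among knockout Cd3-positive nuclei up to 4000 UMIs these were 0.77, 0.55, 0.17 and -0.35. Other TOP messages took 1.34% of UMIs in these control nuclei and the mitochondrial genome 0.386%, so the correlations differ in sampling noise and their order is not read.

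The ribosomal protein share was also summed over nuclei with a UMI of a T cell program gene. Il17a-positive nuclei up to 4000 UMIs had 10.4% (10.2 to 10.7) in the control library, from 37 nuclei, against 9.49% in the other 1993 Cd3-positive nuclei. In the knockout library Il17a-positive nuclei had 9.08% (8.86 to 9.31), from 25 nuclei, against 7.31%. Gata3-positive nuclei had 9.87% against 9.29% in the control and 7.91% against 7.02% in the knockout library. Nuclei with Ifng or Tbx21 were on the other side, with 9.20% against 9.59% and 6.79% against 7.57%. Foxp3-positive nuclei had 9.27% against 9.54% in the control and 7.43% against 7.37% in the knockout library. Nuclei of a library share 1 source and the intervals leave out the spread among nuclei, so these are descriptions. Whether the groups differ beyond that spread was not tested. Within each of the 4 positive groups the knockout library was lower.

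Cd3-negative nuclei had a lower share than Cd3-positive ones. Up to 4000 UMIs the summed log2 ratio of Cd3-negative over Cd3-positive was -0.28 (-0.29 to -0.28) in control and -0.27 (-0.28 to -0.26) in knockout nuclei. The median over all genes tested was -0.09 and -0.10, so the members lay below it by about the same distance in each library. At or below -0.5 were 4 of 82 members in the control, where 18.4% of all genes were, and 5 of 82 in the knockout library, where 20.0% were. None reached 0.5, against 16.2% and 16.9% of all genes. Many other genes differed by more between these classes than ribosomal protein genes did.

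**Figure D4:**
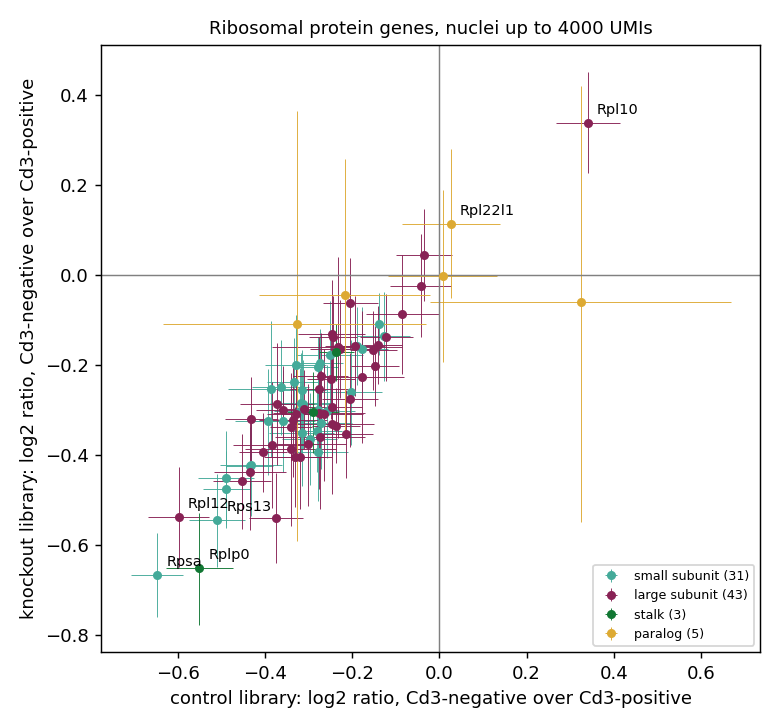
Log2 ratio of Cd3-negative over Cd3-positive nuclei up to 4000 UMIs in the control library (horizontal axis) and in the knockout library (vertical axis), 1 point per ribosomal protein gene tested in both, coloured by role; lines are exact 95% counting intervals. Nearly all points lie below 0 on both axes, with Rpsa lowest on each (-0.65 and -0.67) and Rpl10 alone at 0.34 on both.

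The order of members was alike in both libraries, with a Spearman correlation of 0.79 between their ratios over 82 genes. Rpsa, a small subunit protein also known as a laminin receptor, was lowest, with 1713 CPM in control Cd3-positive and 1094 in Cd3-negative nuclei. In the knockout library it had 1319 and 831, and the ratios were -0.65 (-0.71 to -0.59) and -0.67 (-0.76 to -0.57). Rplp0, the base of the stalk, had ratios of -0.55 (-0.63 to -0.47) and -0.65 (-0.78 to -0.53). Rpl12, which binds at the stalk base, had -0.60 (-0.67 to -0.53) and -0.54 (-0.65 to -0.43). Small subunit genes were further below 0 than large subunit genes in the control library, with sums of -0.32 (-0.33 to -0.31) and -0.26 (-0.27 to -0.25).

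Rpl10, a large subunit protein fitted late in assembly and needed for subunit joining, went the other way. It had 735 CPM (710 to 761) in control Cd3-positive and 931 (897 to 965) in Cd3-negative nuclei. In the knockout library it had 610 (576 to 645) and 771 (731 to 813). The ratio was 0.34 in each library (0.27 to 0.41 and 0.23 to 0.45), and in each the interval of the Cd3-negative nuclei lay wholly above that of the Cd3-positive ones. Between the libraries Rpl10 was lower in the knockout by the same -0.27 in both classes.

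The paralogs differed from their partners. Rpl22l1, the paralog of Rpl22, had 353 CPM in control Cd3-positive and 360 in Cd3-negative nuclei up to 4000 UMIs, whereas Rpl22 had 544 and 459. Of the UMIs of the pair, Rpl22l1 took 39.4% (37.8 to 40.9) and 43.97% (42.0 to 45.9) in these control nuclei, and 42.3% (39.8 to 44.9) and 50% (47.1 to 52.9) in the knockout nuclei. Up to 4000 UMIs the Rpl22l1 share of the pair was thus higher in Cd3-negative nuclei of both libraries. Above 4000 UMIs the order was reversed with overlapping intervals, at 40.6% (38.6 to 42.7) in Cd3-positive and 37.3% (30.5 to 44.5) in Cd3-negative nuclei of the control library, and 44.7% (42.9 to 46.5) and 41.2% (35.4 to 47.1) in the knockout library. Rpl36al took 38.1% (36.4 to 39.7) of its pair with Rpl36a in control Cd3-positive and 42.7% (40.6 to 44.9) in Cd3-negative nuclei, and 37.7% and 43.7% in the knockout library. Rps27l, a p53 target, took 2.61% and 2.52% of its pair with Rps27 in Cd3-positive and Cd3-negative control nuclei up to 4000 UMIs, and 2.04% and 2.17% in knockout nuclei. Above 4000 UMIs it took 2.43% (2.04 to 2.88) and 4.197% (2.68 to 6.23) in control nuclei, with overlapping intervals, and 2.08% (1.79 to 2.40) and 6.42% (4.72 to 8.50) in knockout nuclei, with intervals apart. These Cd3-negative values rest on 23 and 45 Rps27l UMIs, in the class where epithelial markers stood apart. Rps27rt, a retrogene near-identical to Rps27, took 5.57% and 4.67% of its pair in control and knockout Cd3-positive nuclei up to 4000 UMIs, and reads of the pair may be split between the copies.

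Rpl39l, the paralog of the exit tunnel protein Rpl39 known mainly from the testis, was rare but uneven. It had 18 UMIs in control Cd3-positive nuclei up to 4000 UMIs, 4.16 CPM (2.47 to 6.58), and 79 in Cd3-negative nuclei, 25.4 CPM (20.1 to 31.7). In the knockout library it had 10 and 38 UMIs, 4.98 (2.39 to 9.16) and 21.6 (15.3 to 29.6) CPM. With nuclei thinned to 1000 UMIs, 2.06% (1.41 to 2.90) of 1553 control Cd3-negative and 0.404% (0.175 to 0.795) of 1978 Cd3-positive nuclei had a UMI; unthinned, 4.32% and 0.690% did. In the same thinned nuclei Epcam, an epithelial gene, was found in 0.644% and 2.12%, and Jchain, a plasma cell gene, in 1.67% and 1.11%. The Rpl39l share in Cd3-negative nuclei was thus as low as that of Jchain, a gene these cells should lack, and is not read as expression by itself. Its intervals in the Cd3 classes did not overlap, whereas those of Jchain did. In the knockout library the thinned shares of 1.31% (0.657 to 2.34) and 0.351% (0.0725 to 1.02) had overlapping intervals. Rpl39 itself had the opposite order, with 1432 CPM in control Cd3-positive and 1062 in Cd3-negative nuclei. No promoter peak was called for Rpl39l in either library.

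The other rare members gave little. Rpl10l, known from the testis, had 0 UMIs in all classes, which allows up to 0.694 CPM in control Cd3-positive nuclei up to 4000 UMIs, and Rpl3l, known from muscle, had at most 1 UMI in any class. Rpl7l1 had 34.9 and 40.3 CPM in control and knockout Cd3-positive nuclei up to 4000 UMIs, a ratio of 0.21 (-0.20 to 0.61), and 43.7 and 38.6 in Cd3-negative ones. Rps19bp1 had 10.6 and 8.47 in Cd3-positive nuclei, with overlapping intervals.

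Accessibility of the members' promoters was compared from 1000 bases before to 100 bases after their annotated starts. Such a window could be set for 82 members. The starts of Rpl18, Rps10, Rps14 and Rpl3l lie more than 2000 bases apart and gave none. A peak called in both libraries lay in the window of 79 members, with 80 peaks per library covering 71627 and 71437 bases. Besides Rpl39l, Rps27rt and Rpl10l had no peak there.

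The promoter peaks were nearly level between the libraries. Scaled to 1000000 counts in shared peaks (peak CPM), they had 5307 in control and 5194 in knockout Cd3-positive nuclei up to 4000 UMIs, a log2 ratio of -0.03 (-0.06 to -0.01). The ratio was -0.01 (-0.03 to 0.01) above 4000 UMIs, -0.01 (-0.04 to 0.02) in Cd3-negative nuclei up to 4000 UMIs and -0.04 (-0.12 to 0.04) above. The medians over the 79 members were -0.01, 0.00 and 0.00 in the first 3 classes, and -0.02, 0.00 and -0.01 over the promoters of all genes. In Cd3-positive nuclei up to 4000 UMIs, 5 members were at or below -0.25 and 1 at or above 0.25, where 6.84% and 6.07% of all genes were. In Cd3-negative nuclei these were 5 and 5 members, where 7.13% and 6.16% of all genes were. The counts of 5 members were near the background shares, while the 1 member at or above 0.25 in Cd3-positive nuclei was below its background. The summed RNA ratio of -0.37 in this class thus stood beside a promoter peak ratio of -0.03, from the same nuclei.

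**Figure D5:**
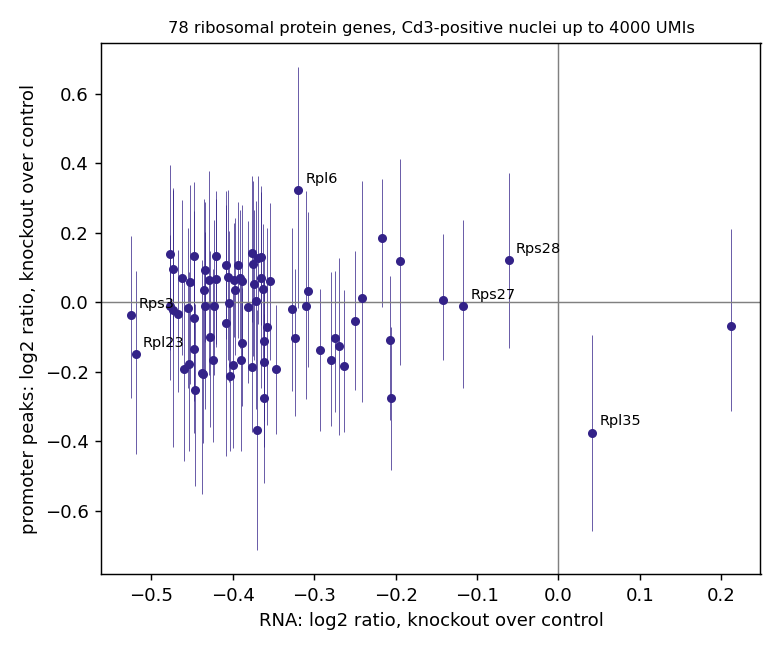
Log2 ratio of RNA, knockout over control (horizontal axis), and of promoter peak counts (vertical axis) for 78 ribosomal protein genes in Cd3-positive nuclei up to 4000 UMIs; vertical lines are exact 95% counting intervals of the peaks. The points spread around 0 on the vertical axis whatever their RNA ratio, with Rpl35 at -0.37 and Rpl6 at 0.32.

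Across the 78 members with both values in Cd3-positive nuclei up to 4000 UMIs, RNA and peak ratios had a Spearman correlation of -0.05. Rpl35, level in RNA, had the lowest peak ratio, -0.37 (-0.66 to -0.09), from 52.2 peak CPM in control and 40.2 in knockout nuclei, and -0.34 (-0.62 to -0.03) in Cd3-negative nuclei. Rpl6 had the highest, 0.32 (-0.02 to 0.68), from 25.5 and 31.9 peak CPM. Rps3 had 65.3 and 63.6 peak CPM, a ratio of -0.04 (-0.28 to 0.19), and Rps27 60.9 and 60.4, a ratio of -0.01 (-0.25 to 0.24). Over 62 members with a RefSeq promoter, the 25 with a C/T run of at least 5 bases at the start had a median RNA ratio of -0.37 and the other 37 one of -0.39.

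Between Cd3-negative and Cd3-positive nuclei up to 4000 UMIs the members' promoter peaks had a summed ratio of -0.12 (-0.14 to -0.10) in control and -0.10 (-0.13 to -0.07) in knockout nuclei. The median over the promoters of all genes was -0.08 in each. Rpl10, higher in RNA in Cd3-negative nuclei, had peak ratios of -0.04 (-0.25 to 0.20) and -0.08 (-0.38 to 0.20). Rpsa, lowest in RNA, had -0.22 (-0.41 to -0.06) and -0.03 (-0.25 to 0.17). At this depth no difference in the Rpl10 promoter was detectable.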

How the data were processed

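Gene expression and chromatin accessibility were measured in single nuclei of 2 libraries, 1 per genotype. Per the submitters' processing notes, the authors ran Cell Ranger ARC 2.0.1 with the mm10 build. The deposited matrices hold raw counts, with UMI counts for 32285 genes and counts per peak for peaks that were called separately in each library (83851 and 85738). Even numbers made up 91.7% and 90.7% of peak values, which were therefore halved for the intervals.

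Nuclei were dropped below 500 UMIs, below 300 genes or above 10% mitochondrial UMIs. Counts were summed per library and class and given as CPM (scaled to 1000000 gene UMIs), and ratios used a pseudocount of 0.5. Genes with at least 100 UMIs over the 2 sums of a comparison entered medians and counts. A ratio was counted at a log2 of 0.5, and also at 0.25, a limit added after the values were seen. The limits of 400 and 600 transcript bases were also set after the values were seen. The calculation was tested on simulated data. The members and gene lists were chosen with earlier results of these data known. Members named in the text are the 5 highest and 5 lowest ratios between libraries in a class, the 3 highest and lowest between Cd3 classes, and those with a known role or paralog. Rpl6 and Rps27a, and Fau and Eef1a1 of the related lists, were named after their values were seen. Transcript lengths came from GENCODE annotation of the same build, and promoter sequences from RefSeq. How reads shared with pseudogenes were counted is not given in the sources used here. Software was numpy 2.4.6, scipy 1.17.1, pandas 2.3.3 and matplotlib 3.10.9. Some results for single genes are not reported here. Alternatives are in the closing section.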

Additional observations from a re-analysis of the deposited data

Results flagged for a closer look

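Rpl4, Rpl5 and Rps27a differed in direction between the libraries. Among nuclei above 4000 UMIs, each was lower in Cd3-negative than in Cd3-positive nuclei of the control library and higher in the knockout library, with both counting intervals apart from 0. The log2 ratio of Cd3-negative over Cd3-positive for Rpl4 was -0.41 in control and 0.42 in knockout nuclei. It was -0.29 and 0.21 for Rpl5, and -0.36 and 0.16 for Rps27a. The difference between the libraries was not tested, and these Cd3-negative classes held 62 and 70 nuclei, with epithelial markers at 3.04% and 5.02% of UMIs.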

How the results depend on the processing

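Each genotype is 1 library, so leaving out a replicate was not possible, and no value has a replicate check. No paired analysis was possible because there is 1 library per genotype. Over the alternatives run, no sum changed direction, and neither did any named member whose counting interval excluded equal levels. For the other named members the direction was not checked. Of 880 values for named members, 843 stayed within the counting interval and 37 moved. In the order Cd3-positive up to 4000, Cd3-positive above, Cd3-negative up to and Cd3-negative above, the knockout over control sums that moved were as follows. Calling Cd3-positive from 2 UMIs gave -0.35 and -0.40 in the Cd3-positive classes. Leaving mitochondrial genes, Malat1 and the members out of the denominator gave -0.40, -0.41 and -0.38 in the first 3. A depth limit of 3000 gave -0.41 and -0.25 above the limit in the Cd3-positive and Cd3-negative nuclei, and 6000 gave -0.33 and -0.043. The mean of single nuclei gave -0.33 and -0.21 there, and scaling by the median of all genes -0.36 and -0.21. Thinning to 1000 UMIs gave -0.39, -0.33, -0.34 and -0.21.

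For Cd3-negative over Cd3-positive nuclei in the control and knockout libraries, calling from 2 UMIs gave -0.31 and -0.31, the smaller denominator -0.31 and -0.29, a limit of 6000 -0.26 and -0.24, and scaling -0.20 and -0.17. Thinning gave -0.24 in the knockout library. For nuclei above over up to the limit among Cd3-positive nuclei, calling from 2 UMIs gave -0.28 and -0.32, the smaller denominator -0.30 and -0.31, and a limit of 3000 -0.22 and -0.26. Further values were -0.32 in the control library with a limit of 6000, -0.23 and -0.19 for the mean of nuclei, -0.26 and -0.26 with scaling, and -0.21 and -0.15 after thinning. The cause of these shifts was not tested. Members at or below a log2 ratio of -0.5 numbered 2, 7, 0 and 2. At -1 the counts were 0 in every class, at -0.25 they were 71, 73, 72 and 27, and with no minimum of UMIs 4 members passed among Cd3-negative nuclei above 4000 UMIs.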
